A study of Homo sapiens with 2 samples.

Results

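The genes described here are RELN, PLXNA4, GRIN2B, GRIP1, SDK2, FRMD4A, NTNG1, WSCD2 and GDF6, 9 genes that each lie in or reach into 1 of the longest H3K27me3 domains of HCT116 cells. They were chosen from the measured read counts of both libraries, so the levels that placed them in these domains are a description and were not tested. Their spans cover 3668 bins of 1 kb, out of 2736177 bins with a read on chromosomes 1 to 22 and X. HCT116 is an established human colorectal carcinoma line, grown here in serum-containing medium without a treatment, and the mark was mapped by ChIP-seq, in which crosslinked chromatin is pulled down with an antibody and sequenced. The series holds 1 group of 2 libraries, labelled as biological replicates, with 53187504 reads in replicate 1 and 97031399 in replicate 2, and no input library was used here. Whether the libraries came from separate cultures is not further specified, so the SD with n = 2 given below may be technical. A level is the read count of a bin over the library's mean across autosomal 1 kb bins with a read, which was 22 reads in replicate 1 and 37.5 in replicate 2. The median such bin stood at 0.409 and 0.373. All positions are on hg19 and are not corrected for copy number or mappability.

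H3K27me3 is trimethylation of lysine 27 of histone H3, placed by the EZH1 or EZH2 subunit of Polycomb repressive complex 2, and it marks silent developmental and lineage-restricted genes. The complex is recruited to CpG islands, which are stretches rich in the dinucleotide CG, and the mark can spread from there, partly because the EED subunit binds the mark it makes. In an epithelial cell, genes of neuronal migration, axon guidance and the synapse are among those usually kept silent. Most of the 9 genes have such roles. RELN encodes reelin, a secreted protein that guides migrating neurons. PLXNA4 encodes plexin A4, a semaphorin receptor of growing axons. GRIN2B encodes the GluN2B subunit of the NMDA receptor for glutamate, and GRIP1 a PDZ-domain scaffold that binds AMPA receptors. SDK2 encodes sidekick 2, an immunoglobulin-superfamily adhesion protein of synaptic layers, and NTNG1 encodes netrin G1, a lipid-anchored adhesion protein of axons. FRMD4A encodes a FERM-domain scaffold involved in cell polarity, and WSCD2 a protein with WSC domains. Neither description is specifically neuronal. GDF6 departs further from a neuronal label, since it encodes a BMP-family ligand known for joint, skeletal and eye development. Transcription was not measured in the data used here.

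Promoter sequence is shown first, because CG content was not used to choose the genes. RefSeq windows of 300 bases, from 250 before to 50 after a transcript start on GRCh38.p14, were matched for 6 of the 9 genes. The 4 printed here are those whose start is the outermost one of the gene in that table, or lies 2.498 kb inside it for WSCD2, with each CG in capitals.
RELN: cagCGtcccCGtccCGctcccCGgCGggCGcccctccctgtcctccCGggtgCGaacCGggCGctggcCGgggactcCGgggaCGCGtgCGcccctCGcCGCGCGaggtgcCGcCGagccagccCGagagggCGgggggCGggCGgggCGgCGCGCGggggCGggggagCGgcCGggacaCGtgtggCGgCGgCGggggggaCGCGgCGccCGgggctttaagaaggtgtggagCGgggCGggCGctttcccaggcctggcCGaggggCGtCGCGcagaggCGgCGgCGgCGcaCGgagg
GRIN2B: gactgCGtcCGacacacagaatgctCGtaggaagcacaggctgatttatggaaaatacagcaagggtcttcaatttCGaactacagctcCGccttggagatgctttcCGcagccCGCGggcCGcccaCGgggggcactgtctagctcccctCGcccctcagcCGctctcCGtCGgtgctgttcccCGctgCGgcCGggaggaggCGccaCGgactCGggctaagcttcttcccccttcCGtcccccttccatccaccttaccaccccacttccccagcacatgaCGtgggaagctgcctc
NTNG1: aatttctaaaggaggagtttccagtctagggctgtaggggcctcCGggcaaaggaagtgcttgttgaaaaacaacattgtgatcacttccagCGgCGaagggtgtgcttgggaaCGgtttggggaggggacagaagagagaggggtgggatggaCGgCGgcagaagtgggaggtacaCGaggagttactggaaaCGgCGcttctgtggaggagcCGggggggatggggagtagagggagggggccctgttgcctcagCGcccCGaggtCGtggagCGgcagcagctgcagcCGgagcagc
WSCD2: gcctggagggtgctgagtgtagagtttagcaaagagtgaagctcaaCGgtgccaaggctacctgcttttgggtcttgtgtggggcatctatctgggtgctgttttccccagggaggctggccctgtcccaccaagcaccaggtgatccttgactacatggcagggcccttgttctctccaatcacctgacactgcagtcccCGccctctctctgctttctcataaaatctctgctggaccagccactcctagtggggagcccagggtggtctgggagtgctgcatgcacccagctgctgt
They differ widely in CG content. The RELN window holds 52 CG, more than 99.2% of the 35116 RefSeq windows of that length, and 83.3% of its bases are C or G. The WSCD2 window holds 2, and 10.97% of windows hold fewer. The GRIN2B and NTNG1 windows hold 22 and 15, where the median window has 14 and 96.0% hold at least 1. Both genes have further starts within 1.3 kb of these, the CG-richest of which has 36 CG in GRIN2B and 46 in NTNG1. The length of GRIN2B in the RefSeq table is 444.8 kb, against a span of 419 kb used here, so its outermost RefSeq start may not be the start of that span. The lengths of the other 8 genes differ by at most 1 kb. The windows listed for PLXNA4 and FRMD4A begin 72.2 kb and at least 322 kb inside those genes and therefore say nothing of their outermost starts.

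The question of how the genes sit in their domains was answered by calling domains over the whole genome. Bins of 5 kb were called enriched when they passed a one-sided Poisson test with Benjamini-Hochberg adjustment and stood at least 2-fold above the library's mean in both libraries, and enriched bins separated by at most 1 other were joined. Of autosomal 5 kb bins with a read, 14.7% were enriched. The procedure gave 13260 domains with a median length of 10 kb. The 9 genes fell into 9 separate domains that hold ranks 2 to 10 in length, from 940 kb for GDF6 to 670 kb for GRIN2B, with RELN and WSCD2 tied at 680 kb. Just past them, on both sides of the ranking, were a domain of 970 kb on chromosome 14 and domains of 665 kb on chromosomes 1 and 22, which hold none of the genes.

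"Filling" describes only some of them. RELN, PLXNA4, GRIN2B, WSCD2 and GDF6 lay wholly inside their domain. RELN, at chr7:103112001-103630000, occupied 76.2% of the domain at chr7:103075001-103755000. PLXNA4, at chr7:131808001-132334000, took up 70.6% of the domain at chr7:131595001-132340000, and GRIN2B, at chr12:13714001-14133000, took up 62.5% of that at chr12:13555001-14225000. GRIP1 and FRMD4A filled most of theirs, 76.7% and 77.6%, but each ran out of it at the 3′ end. GRIP1, at chr12:66741001-67463000, had 80.7% of its span in the domain at chr12:66880001-67640000 and a further 15.2% in a separate domain of 110 kb. FRMD4A, at chr10:13685001-14373000, had 89.1% in the domain at chr10:13760001-14550000 and 5.09% in one of 35 kb.

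The other 4 genes were the smaller part of a domain. SDK2, at chr17:71330001-71640000, had 88.7% of its length inside the domain at chr17:71365001-72200000 but made up only 32.9% of it, and 560 kb of that domain lay upstream of the gene. WSCD2, at chr12:108523001-108645000, made up 17.9% of the domain at chr12:108225001-108905000. NTNG1, at chr1:107682001-108026000, had only its last 111 kb, or 32.3% of the gene, in the domain at chr1:107915001-108665000. GDF6, at chr8:97154001-97173000, spans 19 kb, which is 2.02% of the domain at chr8:96300001-97240000. These lengths depend on joining across single bins. With no gap allowed, the longest piece over GDF6 was 35 kb and that over NTNG1 75 kb. It was 290 kb over RELN, 230 kb over FRMD4A, 220 kb over SDK2 and 215 kb over GRIN2B, in each case shorter than the gene. Only over PLXNA4, GRIP1 and WSCD2 did it stay long, at 640, 660 and 570 kb.

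**Figure D1:**
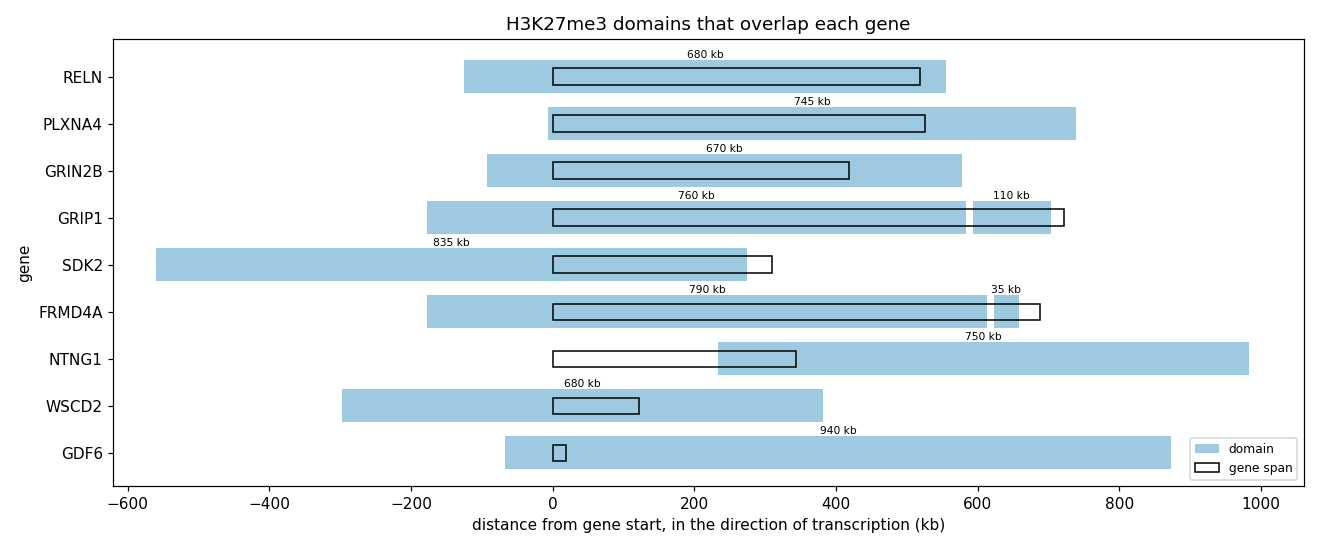
Each row shows 1 gene: the outlined box is the gene span and the filled bars are the domains that overlap it, against distance from the gene start in kb, positive in the direction of transcription. RELN, PLXNA4 and GRIN2B sit inside domains of 680, 745 and 670 kb, NTNG1 overlaps its domain only with its 3′ part, and GDF6 is a small box near one end of a domain of 940 kb.

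The level over a whole gene was between 3 and 5.5 in 8 genes and far lower in NTNG1. PLXNA4 was the highest, at 5.09 in replicate 1 and 5.27 in replicate 2 (5.18 ± 0.129, SD, n = 2). Then came a group of 4 close to each other. WSCD2 stood at 4.53 and 4.73, GDF6 at 4.51 in both, GRIP1 at 4.29 and 4.61, and RELN at 4.21 and 4.50. Of these, WSCD2 was the highest in each library. RELN was the lowest in replicate 1 and nearly equal to GDF6 in replicate 2, at 4.505 against 4.508. GRIP1 and GDF6 changed places, and the values of GRIP1 in the 2 libraries enclose those of GDF6. FRMD4A stood at 3.38 and 3.57, GRIN2B at 3.28 and 3.49 and SDK2 at 3.16 and 3.26. FRMD4A and GRIN2B overlap in their values, and these 3 genes lay below the previous 5 in each library. NTNG1 stood at 1.26 and 1.33 (1.30 ± 0.0520). The median over the 9 genes was 4.21 in replicate 1 and 4.50 in replicate 2. Replicate 2 was above replicate 1 in 8 genes, by 1.03 to 1.07 times. When both libraries were scaled to the bins listed in either of them, a scaling added once the values were known, the ratio in those 8 genes was 0.965 to 1.00, and in GDF6 it was 0.935.

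SDK2, GDF6 and WSCD2 lie in surroundings that were themselves higher. In the 10 Mb around it, the median bin with a read was 3.11 and 3.43 times the autosomal median for GDF6, 2.00 and 2.07 times for WSCD2 and 1.67 and 1.79 times for SDK2, while the other 6 genes had 0.786 to 1.29 times. The 10th percentile, at 2 to 7 reads per bin a coarse measure, was 2.00 and 2.33 times the autosomal one around GDF6 and 1.5 and 1.67 times around SDK2, but 1.00 and 1.33 times around WSCD2, the same as around PLXNA4, GRIP1 and FRMD4A. The part of copy number in these levels was not tested. Relative to the mean of their own chromosome, GDF6 stood at 3.47, SDK2 at 2.40, FRMD4A at 2.69 and RELN at 5.05.

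**Figure D2:**
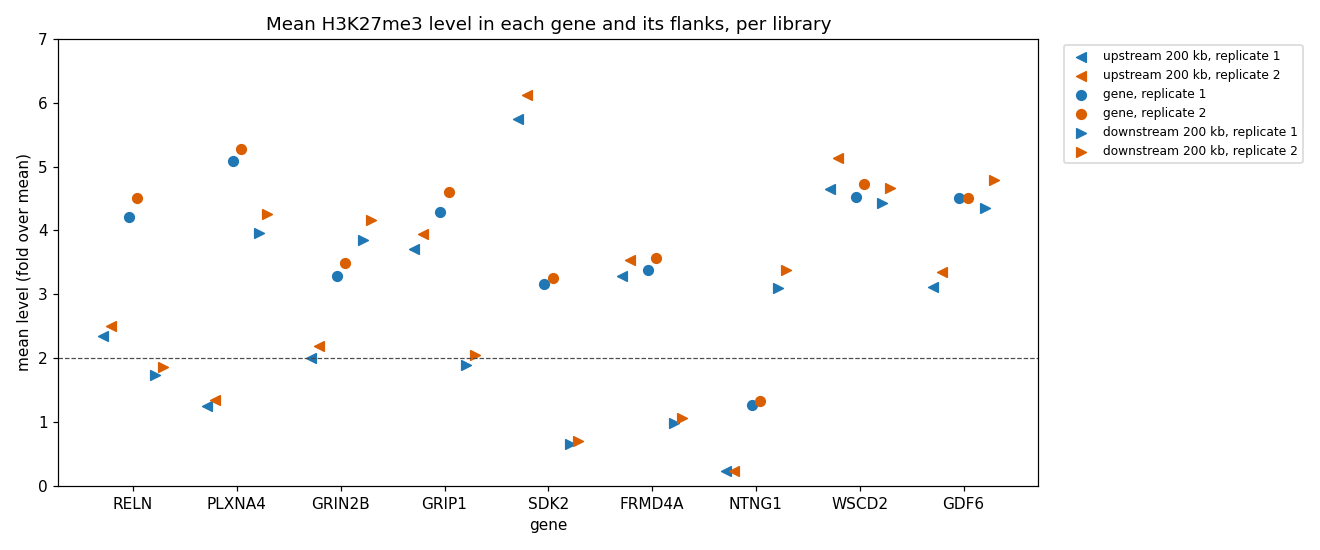
Mean level, as fold over the library's mean autosomal bin with a read, in the gene (circles) and in the 200 kb upstream and downstream of it (triangles pointing left and right), with 1 point per library. Replicates lie close together relative to the distance between PLXNA4 at about 5.2 and NTNG1 at about 1.3. The upstream points of SDK2 and WSCD2 and the downstream points of NTNG1 and GRIN2B are above the gene itself in both libraries.

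Counted bin by bin, the mark was nearly continuous in some genes and patchy in others. Of all autosomal 1 kb bins with a read, 12.7% stood at or above 2-fold in both libraries. Over the 9 genes 2905 of 3668 bins did, or 79.2%, a share that follows from how the genes were chosen. It was highest in WSCD2 with 97.5% and PLXNA4 with 96.0%, followed by RELN with 90.0%, GRIP1 with 88.8%, GRIN2B with 82.8%, FRMD4A with 80.7% and GDF6 with 78.9%. SDK2 reached 59.4% and NTNG1 21.2%. The longest stretch of PLXNA4 in which no bin fell below 2-fold in either library was 280 kb, against 173 kb in GRIP1, 120 kb in RELN, 60 kb in WSCD2, 43 kb in FRMD4A, 41 kb in GRIN2B and 32 kb in SDK2. Bins as low as most of the genome were rare. Under 0.5-fold in both libraries were 54.2% of autosomal bins, but none in PLXNA4, WSCD2 and GDF6, at most 2.18% in RELN, GRIN2B, GRIP1, SDK2 and FRMD4A, and 28.5% in NTNG1.

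**Figure D3:**
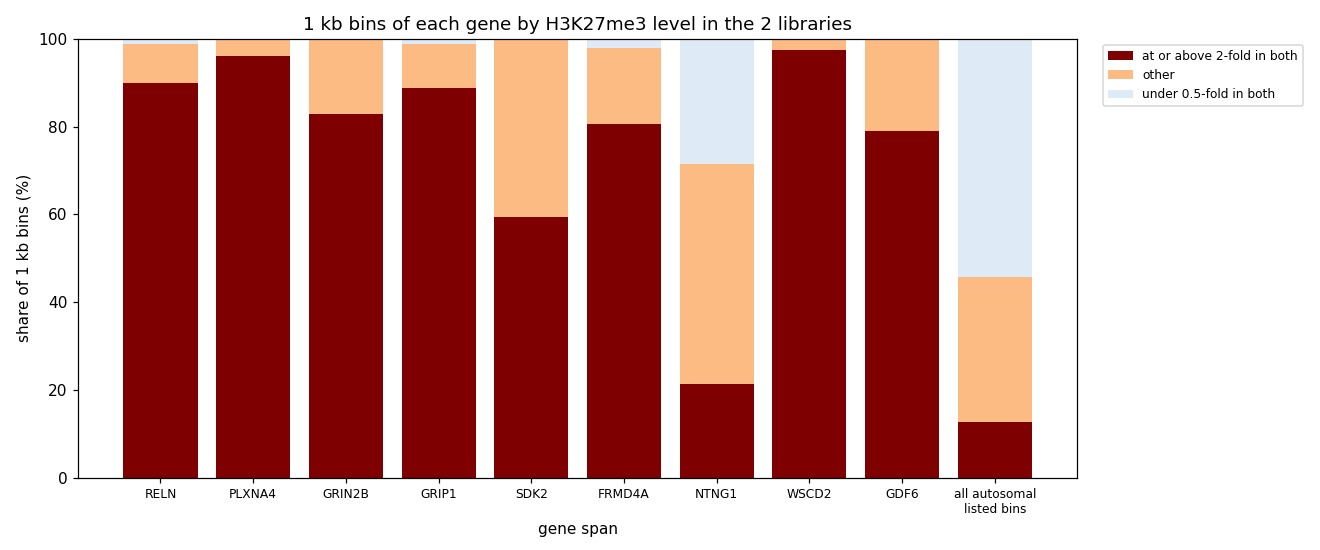
Stacked bars give the share of 1 kb bins of each gene span, in percent, that stood at or above 2-fold in both libraries, under 0.5-fold in both, or neither, with all autosomal bins with a read as the last bar. In 8 genes the share at or above 2-fold is at least 59.4%, against 12.7% of all autosomal bins, and NTNG1 has 21.2%.

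Single bins varied within a gene by more than single reads would. The coefficient of variation over 1 kb bins was 37.9% in replicate 1 and 37.5% in replicate 2 for RELN, where independent reads at that mean would give 10.4% and 7.69%. The most even genes were WSCD2, at 30.5% and 27.02%, and PLXNA4, at 31.9% and 31.3%. SDK2 was much less even, at 69.5% and 65.6%, and NTNG1 the least, at 92.7% and 93.8%. The highs and lows were shared by the libraries, with Pearson's r across the 1 kb bins of a gene from 0.761 in WSCD2 to 0.967 in GDF6. These correlations are across neighbouring bins, which are not independent, and they share the sequence and mappability of each bin.

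The course along the gene differed. Averaged over 5 equal segments of the span, GRIP1, WSCD2, GRIN2B and FRMD4A were level. Their highest segment stood at 1.11, 1.16, 1.16 and 1.18 times the lowest. Highs and lows inside a segment, such as those near the 3′ ends of GRIP1 and FRMD4A, do not show on this scale. PLXNA4 and SDK2 were arched. PLXNA4 stood at 4.34 ± 0.0938 in its first segment, 5.76 ± 0.162 in its middle one and 4.81 ± 0.137 in its last (SD, n = 2). RELN and NTNG1 were highest in the last segment. RELN stood at 4.12 and 4.38 in its first segment and at 5.55 and 6.14 in its last. NTNG1 stood at 0.252 and 0.287 in its first segment, 0.547 and 0.578 in the next, 0.970 and 1.005 in the middle, 1.82 and 1.83 in the fourth and 2.74 and 2.99 in the last, a difference of 10.6 times between the ends. Over 20 finer segments, RELN and NTNG1 were the most alike pair of the 8 genes long enough to compare, with r = 0.753, and this is a description over segments of the same libraries. SDK2 stood at 3.09 ± 0.0581 in its first segment, 4.15 ± 0.0881 in the second, 4.23 ± 0.0745 in the third, 2.44 ± 0.0696 in the fourth and 2.13 ± 0.0640 in the last. GDF6, with 19 bins, stood at 1.47 and 1.29 in its first segment and 5.89 and 6.42 in its last. The first segment was above the last in both libraries in 3 genes, GRIN2B, SDK2 and FRMD4A, and in 5 genes when the first and last 10% of the span were compared.

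The highest 10 kb lay at least 145 kb from the gene start in every gene over 300 kb. In GRIP1 the highest 10 kb, at chr12:66840001-66850000 and 618 kb from the start, reached 9.02 and 10.2, within a 3′ stretch of alternating high and low bins. In SDK2 the highest 10 kb, at chr17:71490001-71500000, reached 8.51 and 8.33, and it lay 145 kb from the start. In RELN the highest, 6.94 and 7.04, lay 510 kb from the start and so next to the 3′ end. The lowest 10 kb of RELN stood at 1.34 and 1.75, and that of WSCD2 did not go below 3.58 and 3.48. FRMD4A and GRIP1 had their lowest 10 kb at the 3′ end of the gene, at 0.305 and 0.256 and at 0.659 and 0.789. In the RefSeq table the gene PRPF18, which encodes a splicing factor, overlaps FRMD4A, and no other member has an overlapping protein-coding gene.

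**Figure D4:**
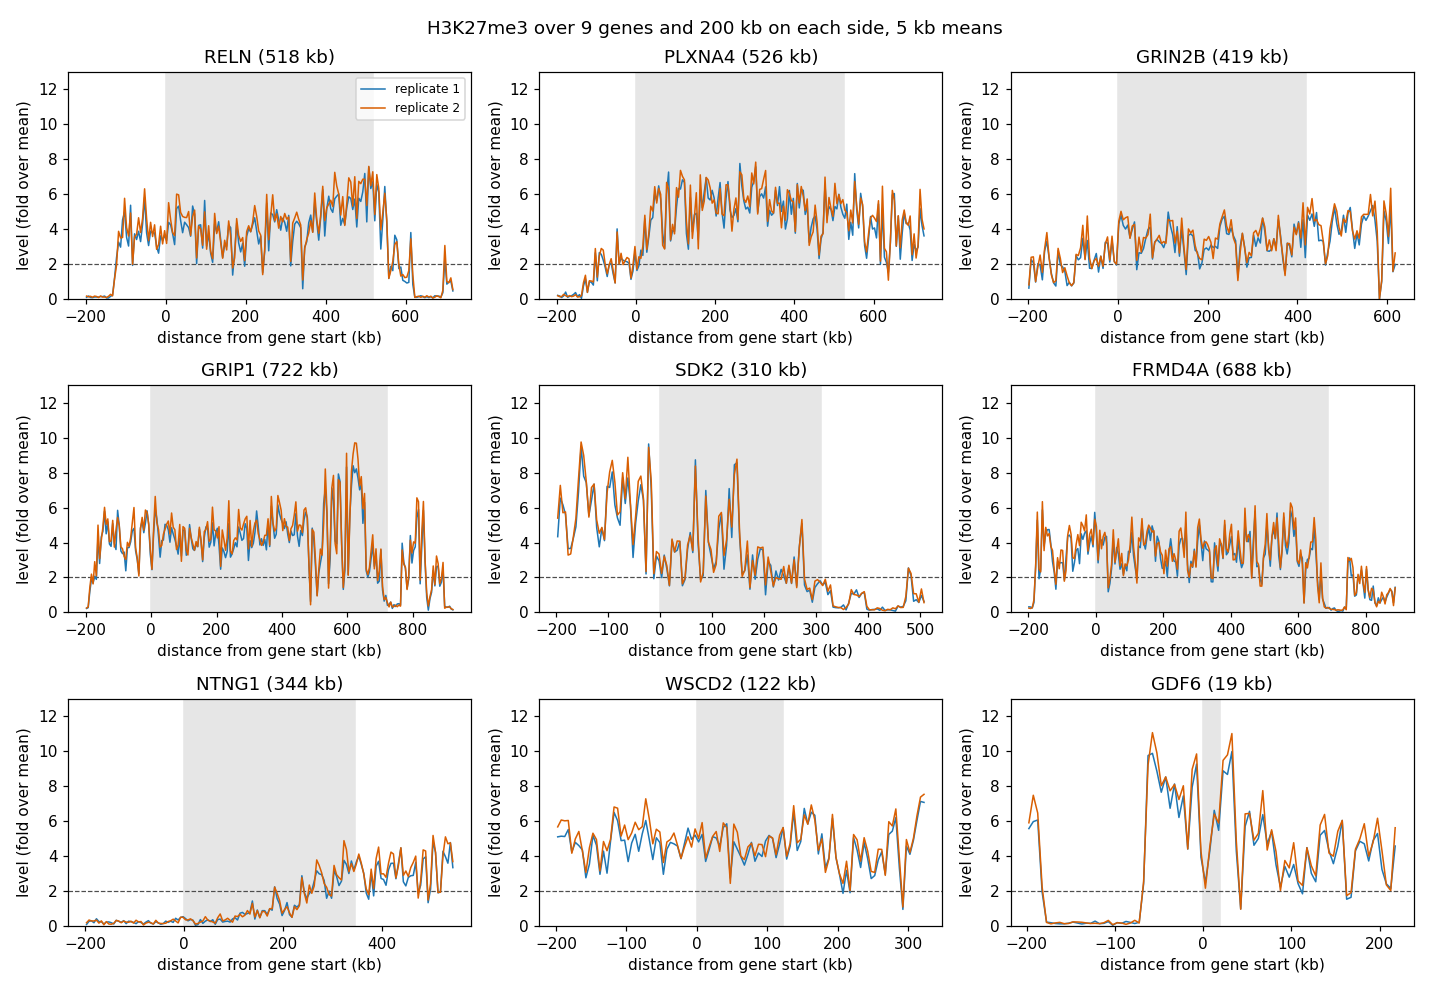
Level in 5 kb means against distance from the gene start in kb, in the direction of transcription, for both libraries, with the gene span shaded and the 2-fold minimum dashed. RELN and WSCD2 stay mostly above 2-fold across the gene, NTNG1 climbs from below 0.5 at its start to about 3 at its end, and the fall upstream of RELN and GDF6 is abrupt.

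At the start itself, 5 genes had a local low in the mark. How often other 4 kb windows lie below both of their sides was not counted. The number therefore describes these starts and does not set them apart from other places. The level in the 4 kb around the start was below that at 10 to 20 kb inside the gene and at 10 to 20 kb upstream, in both libraries, in RELN, GRIN2B, GRIP1, SDK2 and GDF6. Only in GDF6 was it at most 50% of both sides in both libraries. The RELN start, whose CG-rich sequence is printed above, stood at 2.11 and 2.28 over 4 kb and at 1.09 and 1.04 in the innermost 2 kb, against 3.995 and 4.17 inside and 3.11 and 3.64 upstream. SDK2 was lowest, at 0.784 and 1.23 over 4 kb and 0.273 and 0.586 in the innermost 2 kb, against 2.01 and 2.12 inside and 4.50 and 4.87 upstream. GDF6 stood at 1.65 and 1.76 over 4 kb and 0.795 and 0.826 in the innermost 2 kb, against 6.04 and 6.15 inside and 6.18 and 6.69 upstream. GRIP1 stood at 2.92 and 3.21 over 4 kb and 1.43 and 2.25 in the innermost 2 kb, against 5.64 and 5.88 inside and 5.46 and 5.79 upstream. GRIN2B had the shallowest low, at 2.23 and 2.62 over 4 kb and 2.07 and 2.56 in the innermost 2 kb, close to its upstream level of 2.72 and 2.91 and under the 4.10 and 4.59 inside. The low was narrow: over 10 kb around the start, the level was below both sides only in GRIP1 and GDF6 of these 5. Windows of 4 kb were also taken at every 1 kb step along each gene. Those lower than the start made up 5.97% and 6.36% of the windows of RELN and 1.93% and 3.86% of those of SDK2. They made up 10.0% in both libraries of those of GDF6 and 11.2% to 17.3% of those of GRIN2B and GRIP1. These windows overlap, and some can overlap the start. In GDF6 all of the lower windows did, so they are the same low and no separate place.

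The remaining 4 starts did not show this form. FRMD4A was high across its start, at 4.98 and 5.13 over 4 kb, against 4.14 and 4.17 inside and 4.16 and 4.61 upstream. WSCD2 was also marked across its start, at 4.61 and 4.66, which lay between 4.03 and 4.20 inside and 5.16 and 4.81 upstream. PLXNA4 stood at 3.17 and 3.12 over 4 kb, above both sides, with low bins just inside the gene, at 0.364 and 0.906 in the third kb. Its lowest bin within 20 kb of the start, at 0 and 0.0533, lay upstream. That bin is part of the 10 to 20 kb upstream side, whose level of 1.58 and 1.74 it lowers. NTNG1 was unmarked at its start, at 0.341 and 0.400, and on both sides of it, from 30 and 60 reads in the 4 kb. CG-rich starts thus lay both inside a domain, as in RELN, and outside it, as in NTNG1 with its window of 46 CG, and whether CG content and the low at the start go together cannot be read from these few sequences. The mappability of CG-rich bins was not measured, and its part in these lows was not tested.

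**Figure D5:**
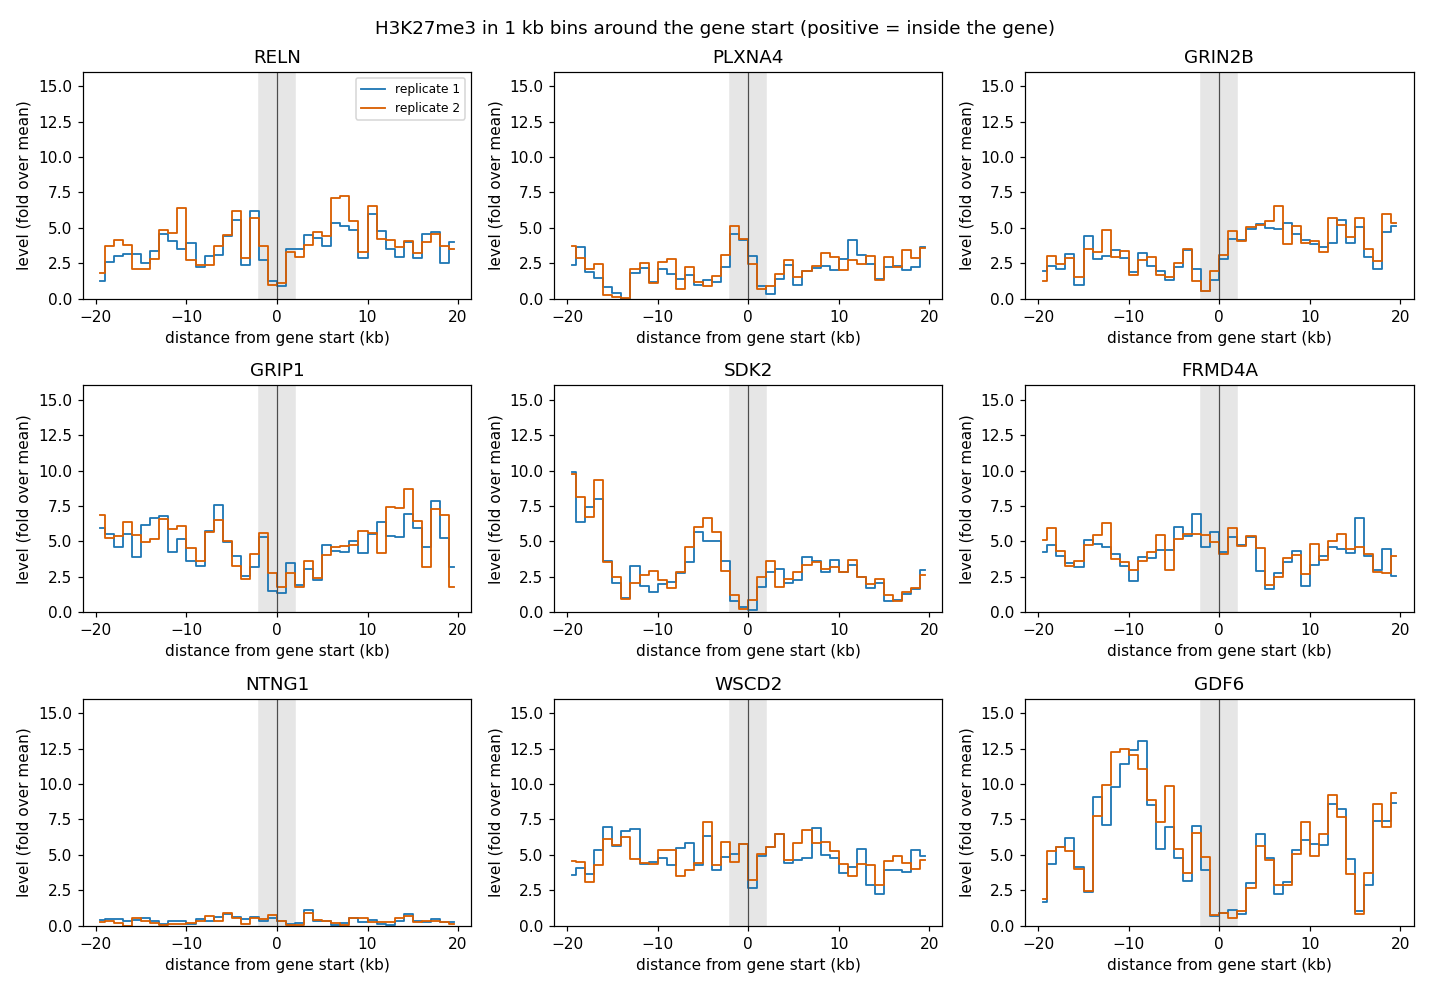
Level in single 1 kb bins from 20 kb upstream to 20 kb inside the gene, for both libraries, with the 4 kb around the start shaded. RELN, SDK2 and GDF6 fall to about 1 or below at the start in both libraries, FRMD4A and WSCD2 do not, and NTNG1 stays under 1.2 throughout.

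Beyond the genes, the mark went on to one side in some and to both in others. Over 200 kb, the upstream flank was above the downstream one in both libraries in RELN, GRIP1, SDK2, FRMD4A and WSCD2, and below it in PLXNA4, GRIN2B, NTNG1 and GDF6. The direction turned at shorter flanks in 3 genes. Over 50 kb, RELN stood at 3.45 and 3.73 upstream and 4.20 and 4.50 downstream, WSCD2 at 4.57 and 4.69 and at 5.41 and 5.53, and GDF6 at 7.02 and 7.51 and at 6.15 and 6.73. Over 200 kb the difference was widest in SDK2, at 5.74 and 6.12 upstream and 0.649 and 0.711 downstream, so that its upstream flank was also above the gene. NTNG1 was its mirror image, at 0.232 and 0.230 upstream and 3.09 and 3.39 downstream. PLXNA4 stood at 1.26 and 1.34 upstream and 3.97 and 4.26 downstream, and FRMD4A at 3.29 and 3.53 upstream and 0.990 and 1.07 downstream. In the other 5 genes, as in PLXNA4, both flanks stood above the autosomal mean in both libraries. RELN stood at 2.34 and 2.50 upstream and 1.73 and 1.86 downstream, GRIN2B at 2.00 and 2.20 and at 3.85 and 4.17, GRIP1 at 3.71 and 3.94 and at 1.89 and 2.04, and GDF6 at 3.11 and 3.34 and at 4.35 and 4.78. WSCD2 stood at 4.65 and 5.14 upstream and 4.43 and 4.66 downstream, which is near its own level of 4.53 and 4.73.

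The upstream ends of the domains ranged from abrupt to gradual. In SDK2 the level changed from 5.35 and 6.05 in the last 10 kb of the domain to 0.168 and 0.171 in the first 10 kb past it, and in GDF6 from 8.51 and 8.63 to 0.504 and 0.488. An end is set at bins under the threshold, so some fall there is fixed by the rule. In the 50 kb past it, mostly beyond the reach of that rule, the level was 0.200 and 0.177 for SDK2, 0.235 and 0.238 for GDF6 and 0.231 and 0.242 for RELN, all below the median autosomal bin with a read. It was 0.452 and 0.513 for FRMD4A, 0.487 and 0.575 for GRIP1, 1.05 and 1.07 for NTNG1 and 1.35 and 1.49 for GRIN2B. Past the upstream end of the PLXNA4 domain, 6 kb from the gene start, it was still 2.06 and 2.12, and for WSCD2 2.74 and 3.03. The nearest protein-coding genes upstream in the RefSeq table are RPL38, a ribosomal protein gene, for SDK2, UQCRB, of respiratory complex III, for GDF6, and ORC5, of the origin recognition complex, for RELN. They are CHCHD3 for PLXNA4 and ASCL4, an achaete-scute family transcription factor gene, for WSCD2. Their hg19 positions were not analysed here, so it is not known where the domain ends lie relative to them.

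Within a domain, the gene and the remainder were compared where at least 20 kb lay outside the gene. PLXNA4 was higher than the remainder of its domain, at 5.09 and 5.27 against 3.84 and 4.13. In SDK2 the part of the gene inside the domain was lower, at 3.39 and 3.48 against 5.29 and 5.65, and so was that of NTNG1, at 2.59 and 2.77 against 3.74 and 4.02. GDF6 was also lower in both libraries, at 4.51 in each against 4.97 and 5.37. RELN, GRIN2B, GRIP1, FRMD4A and WSCD2 differed from the remainder of their domain by at most 0.311 in either library.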

How the data were processed

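The authors deposited 1 table of raw read counts per 1 kb bin for each of the 2 H3K27me3 libraries, per the labels and the text deposited with the series. Per the submitters' processing notes, BWA 0.7.12 was the aligner and hg19 (GRCh37) the build. How reads were counted, and whether duplicates or poorly mapped reads were removed, is not given in the sources used here. Bins not listed were taken as 0. Depth was 53187504 and 97031399 reads, which at level 1 gives a counting error of 21.3% and 16.3% per 1 kb bin for single reads. Of bins with 1 to 10 reads, 67.8% and 67.7% held an even number, so reads may be counted in pairs and this error is a lower bound.

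The genes, lists and windows were chosen with earlier results of these data known, and the comparison around gene starts was added after the profiles were seen. Gene spans on hg19 were given to the nearest kb and were not checked against an annotation of that build. The GRIN2B span is shorter than the gene in the GRCh38.p14 table. The direction of transcription is general knowledge, checked against the RefSeq strand for 6 genes. Exons and a list of pathway partners need hg19 gene positions and were not used here. All 9 genes are named; of others, only the nearest protein-coding neighbours and overlaps in the GRCh38.p14 table are, without values. There is 1 group, so no test between groups was made. Domains came from a one-sided Poisson test per 5 kb bin, adjusted by Benjamini-Hochberg at 0.05, with a 2-fold minimum in both libraries, relative to the mean 5 kb bin with a read, and the caller was tested on simulated data. Alternatives were other scalings, bins, gaps, folds and windows, and each library left out. Analysis ran in Python 3.11.15 (scipy 1.17.1, pandas 2.3.3, numpy 2.4.6); plots were drawn with matplotlib 3.10.9.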

Additional observations from a re-analysis of the deposited data

How the results depend on the processing

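Of 32 alternatives to the 6 summary results, 24 left a result the same, as a count within 1.5 times or a level within 1 SD of the libraries, and 8 moved it. The median level of 4.36 over the 9 genes became 11.2 scaled to the autosomal median, 3.47 scaled to the same chromosome, 39.9 scaled to the 10th percentile within 5 Mb and 4.64 scaled to bins listed in either library; the settings with the autosomal median and the 10th percentile divide by a smaller quantity. With a library left out it was 4.21 to 4.50. The 8 genes with at least 50% of their span in 1 domain became 4 without a gap and 5 at a 3-fold minimum. The 3 genes higher over the first than the last 20% became 5 with 10%. The 5 genes lower at the start than on both sides, a comparison added after the data were seen, became 2 with a 10 kb window, and 5 to 6 with a library left out, where the sixth is NTNG1, unmarked on both sides. The causes were not tested beyond these constructions. No paired analysis was possible because both libraries belong to 1 group. Depth limits single bins, and copy number and mappability limit all levels.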
